A study of Mus musculus with 9 samples.

Results

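Chemokines are small secreted proteins that bind G protein-coupled receptors on leukocytes and draw those cells along a gradient. They are grouped by the spacing of the cysteines near the start of the mature protein, adjacent in the CC family, separated by another residue in the CXC family, and single in the C family. Activated CD8+ T cells, the killer lymphocytes of the adaptive immune system, release CC chemokines such as Ccl3, Ccl4 and Ccl5 and the C chemokine Xcl1, and so call monocytes, other T cells and cross-presenting dendritic cells to the site where they meet antigen. The genes described here are the 7 chemokines Ccl1, Ccl3, Ccl4, Ccl5, Ccl9, Xcl1 and Cxcl10, chosen by symbol from the 24391 genes of the deposited tables. All 7 were listed, and 6 of them passed the filter on low counts, which left 11981 genes for the test, and Ccl1 did not.

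RNA was sequenced from mouse CD8+ T cells after activation for 72 h in medium with interleukin 2 at 100 U/mL. There were 4 libraries of cells activated with an inhibitor of LSD1 (LSD1i) and 5 libraries of cells that were not treated (NT). LSD1 removes methyl groups from histone H3 and is recruited to genes by repressors such as Gfi1. The inhibitor's name and dose, the mouse strain and the age of the animals are not given in the labels, and separate animals or cultures are not stated for the numbered replicates. The p-values therefore cover only library-to-library spread, which may be technical. RNA was measured, not secreted protein.

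Library totals ran from 15163983 to 29245278 raw reads. The authors deposited a raw and a batch-corrected count table, and 4 libraries carry opposite group names in the 2 tables, namely the replicates numbered 1 and 2. The match rests on which genes are zero, where a library and its partner differed at 0 genes and no other partner at fewer than 1336. The labels do not settle which naming holds. Library names and directions below are those of the batch-corrected table, also where raw reads are given, unless the raw table's own names are stated. In raw counts, the log2 fold change of Gfi1 was 1.29 ± 0.12 (SE) in the 5 libraries named alike. It was 1.24 ± 0.17 in the other 4 under the batch-corrected names, and 0.09 ± 0.41 in all 9 under the raw table's names. Which naming is right was not tested. The CD8 T cell markers held 2621 to 2746 CPM in all in LSD1i libraries and 2345 to 2602 CPM in NT libraries, and these sums did not overlap. Of 9 tested CD8 T cell markers 1 was called by edgeR, Cd8a, with 484 ± 20.6 CPM in LSD1i cells and 373 ± 29.9 CPM in NT cells (adjusted p = 0.0266), and Cd4 had at most 5 counts in any library.

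The stretches of coding sequence that hold the cysteine motif of each family are shown first, for 6 of the 7 genes. The motif sought in a gene was set by the family in its name, and the first match is shown. These stretches are therefore no test of family membership. They come from GENCODE M21 transcripts (GRCm38), read in the sense of the mRNA, and begin 4 codons before the motif and end 4 codons after it. Cysteine codons are in capitals, and the first 21 codons were left out of the search.
Ccl5: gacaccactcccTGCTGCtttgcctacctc
Ccl4: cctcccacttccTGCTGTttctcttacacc
Ccl9: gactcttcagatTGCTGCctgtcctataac
Ccl1: gtctccaatagcTGCTGCttgaacaccttg
Cxcl10: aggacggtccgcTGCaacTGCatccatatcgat
Xcl1: gaagagagtagcTGTgtgaacttacaa
Ccl3 and Ccl4 had the closest coding sequences, with 66.7% of aligned positions identical. The other pairs lay between 40.1% and 59.9%. The sources used here do not say whether reads were counted by strand, so reads from any overlapping or antisense transcript cannot be told apart from the gene's own.

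Levels between genes are compared as CPM (read counts relative to TMM-scaled library totals) per kilobase of transcript in the batch-corrected table. Xcl1, which attracts dendritic cells that carry XCR1, was the highest, with 202 ± 23.5 CPM per kilobase in LSD1i cells and 212 ± 47.2 in NT cells (SD, n = 4 and n = 5). It was followed by Ccl4, with 124 ± 22.7 in LSD1i cells and 131 ± 36.2 in NT cells, and by Ccl3, with 81.0 ± 18.4 in LSD1i cells and 93.3 ± 24.8 in NT cells. Ccl5 had 34.0 ± 7.45 CPM per kilobase in LSD1i cells and 61.9 ± 10.2 in NT cells. Cxcl10 had 5.95 ± 1.82 in LSD1i cells and 7.76 ± 2.47 in NT cells, and Ccl9 0.261 ± 0.0844 in LSD1i cells and 0.781 ± 0.407 in NT cells. This order of neighbours held within each of the 9 libraries, except that Ccl3 lay above Ccl5 in 8 of 9. The length used for Ccl9 is that of a long GENCODE transcript of 3006 bases, and the sources used here do not name the annotation used for counting.

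In the comparison of LSD1i with NT cells, which asks how activation under LSD1 inhibition changes transcript levels, 2 of the 6 tested chemokines fell, Ccl5 and Ccl9, and 0 rose. The other 4, Cxcl10, Ccl3, Ccl4 and Xcl1, did not pass. Among all 11981 tested genes 3.31% were called at an adjusted p under 0.05 (edgeR's quasi-likelihood test, Benjamini-Hochberg adjustment over all tested genes), 1.16% as lower and 2.15% as higher in LSD1i. All 6 log2 fold changes were below 0, with a median of −0.29, against a median of −0.02 over all tested genes, of which 54.4% were below 0. In bulk RNA, fewer cells that make a chemokine and less RNA per cell cannot be told apart.

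**Figure D1:**
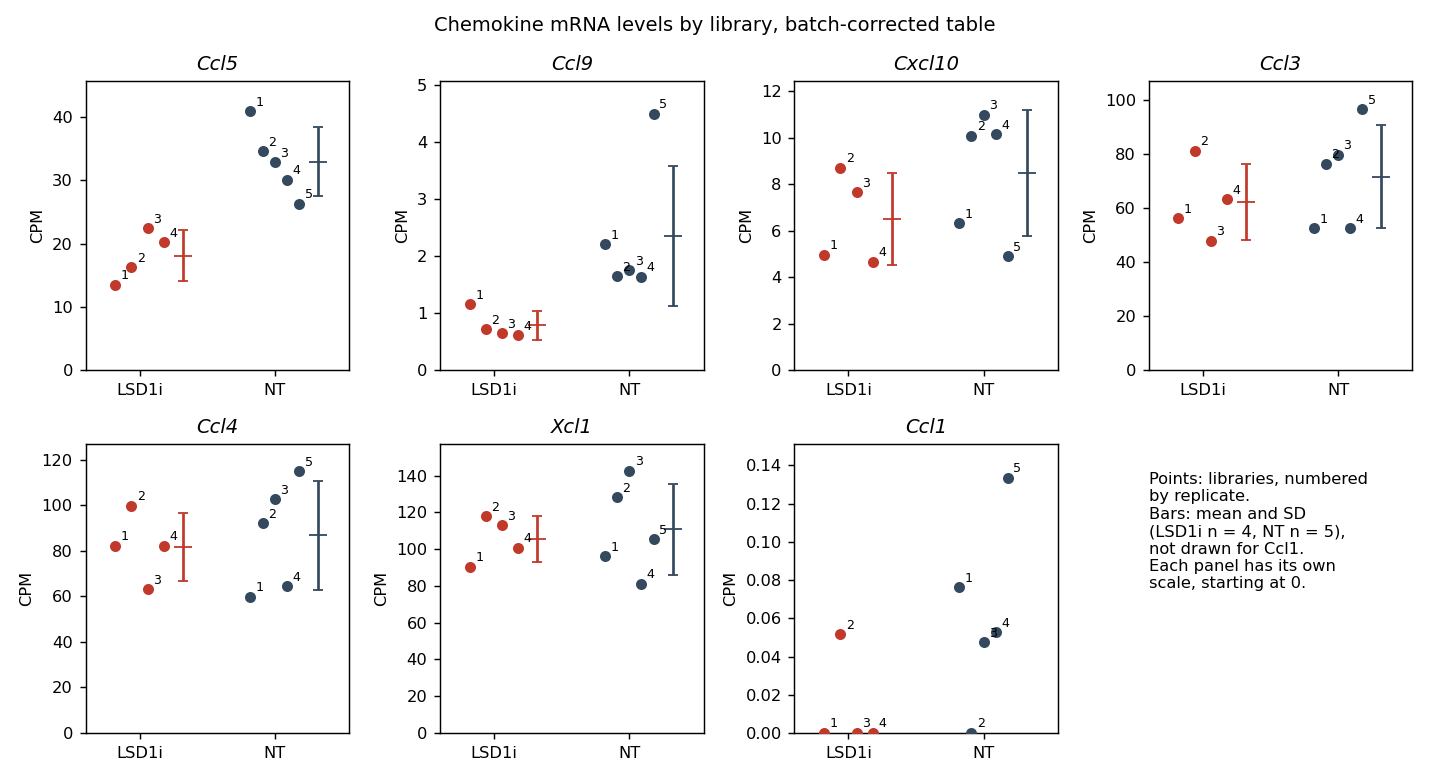
Level of each chemokine in CPM (vertical axis, each panel from 0) in the 4 LSD1i and 5 NT libraries of the batch-corrected table, with points numbered by replicate and bars for mean and SD in all panels but that of Ccl1. The LSD1i points lie below every NT point for Ccl5 (at most 22.4 against at least 26.3 CPM) and Ccl9 (at most 1.16 against at least 1.64 CPM) and overlap the NT points in the other panels.

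Ccl5, also called RANTES, is a ligand of CCR1 and CCR3, among others, that effector and memory CD8+ T cells are known to make. It had 13.5, 16.3, 22.4 and 20.2 CPM in LSD1i 1 to LSD1i 4, against 40.9, 34.5, 32.9, 30.1 and 26.3 CPM in NT 1 to NT 5. Every LSD1i library was below every NT library, which was so for 3.46% of all tested genes. The means were 18.1 ± 3.96 CPM in LSD1i cells (SD, n = 4) and 32.9 ± 5.44 CPM in NT cells (n = 5). The log2 fold change was −0.86 ± 0.16 (SE, adjusted p = 0.0148 in edgeR), a level 1.82-fold lower, with a 95% interval from −1.23 to −0.50. Ccl5 was called in each of the 9 fits that left out 1 library, with adjusted p-values from 0.00902 to 0.0472. In those fits the share of all tested genes called lower was 0.513%, 0.77%, 0.522% and 0.466% without LSD1i 1 to LSD1i 4, and 1.09%, 0.721%, 0.733%, 0.678% and 1.34% without NT 1 to NT 5. DESeq2 gave −0.86 ± 0.17 for Ccl5 (adjusted p = 5.24e-05), with 1.88% of all genes called lower.

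Raw reads of Ccl5 numbered 249, 309, 413 and 453 in LSD1i 1 to LSD1i 4, against 987, 496, 706, 568 and 575 in NT 1 to NT 5. As raw CPM, the groups again did not overlap, at 13.0 to 24.2 in LSD1i and 25.9 to 34.9 in NT, which was so for 1.31% of genes. With the batch as a term (replicates 1 and 2 against 3 to 5, a split recovered from the data) the log2 fold change was −0.76 ± 0.17 and the call was lost (edgeR, adjusted p = 0.0552, with 0.453% of 11916 genes called lower). With the raw table's own names for the libraries, it was 0.24 ± 0.29 (adjusted p = 0.999), a fit in which 0 of 11916 genes were called by edgeR and 172 had an unadjusted p under 0.05.

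Within each replicate set, every LSD1i library had less Ccl5 than every NT library. In replicates 1 and 2, Ccl5 had 13.0 and 14.99 raw CPM in LSD1i cells against 34.9 and 30.9 in NT cells, a log2 fold change of −1.25 ± 0.19 (edgeR, adjusted p = 0.178, with 0 of 11837 genes called lower and 8 higher). In replicates 3 to 5, the 5 libraries that both tables name alike, it had 24.2 and 21.4 raw CPM in LSD1i cells against 33.3, 30.2 and 25.9 in NT cells, a log2 fold change of −0.38 ± 0.15 (edgeR, adjusted p = 0.323, with 0.166% of genes called lower). The LSD1i libraries of the 2 sets thus lay further apart than the NT libraries did. The difference between these effects was 0.84 ± 0.23 (second minus first set, edgeR interaction term, unadjusted p = 0.00447, adjusted p = 0.764). Over all 11916 genes 0 interactions were called by edgeR, and 581 had an unadjusted p under 0.05. That count was not stable, since 3.38% of 11880 genes were called without NT 2 and 1.6% of 20052 with no low-count filter, Ccl5 in neither (adjusted p = 0.0737 and 0.114 in edgeR). The sets also differed in the noncoding RNA Rpph1, at 0.297% to 0.476% of the raw reads in replicates 1 and 2 and 2.83% to 3.09% in replicates 3 to 5, whose part in the Ccl5 values was not tested.

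**Figure D2:**
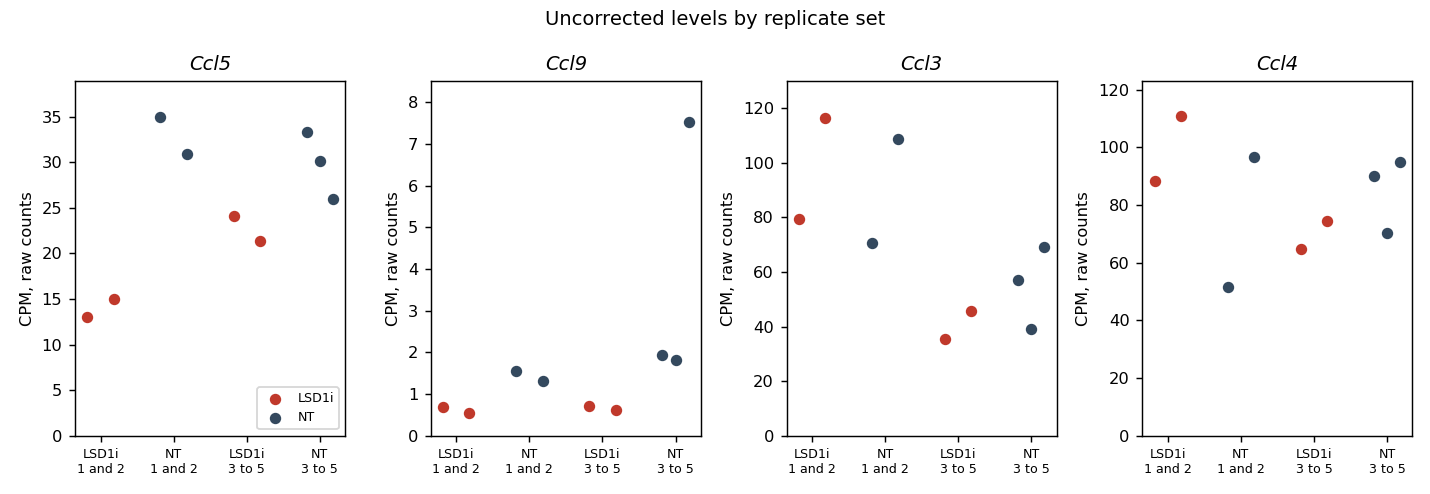
CPM from raw counts (vertical axis, each panel from 0) of Ccl5, Ccl9, Ccl3 and Ccl4, with LSD1i and NT libraries drawn side by side within replicates 1 and 2 and within replicates 3 to 5. Ccl5 is lower in LSD1i in both sets, the Ccl9 value of NT 5 (7.53 CPM) stands above the rest, and Ccl3 runs from 70.6 to 116 CPM in replicates 1 and 2 and from 35.4 to 69.1 CPM in replicates 3 to 5.

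Ccl9, a rodent CC chemokine that binds CCR1 and is best known from myeloid cells, was scarce. It had 1.16, 0.722, 0.644 and 0.614 CPM in LSD1i 1 to LSD1i 4, against 2.21, 1.65, 1.75, 1.64 and 4.49 CPM in NT 1 to NT 5. Every LSD1i library was below every NT library, as for 3.46% of all tested genes, and NT 5 stood above the other NT libraries. The raw reads behind these levels were 13, 11, 12 and 13 in LSD1i 1 to LSD1i 4, against 44, 21, 41, 34 and 167 in NT 1 to NT 5, so counting error is large in the LSD1i libraries. The log2 fold change was −1.60 ± 0.37 (adjusted p = 0.0388 in edgeR, 95% interval −2.42 to −0.79), a level 3.04-fold lower. DESeq2 gave −1.59 ± 0.40 (adjusted p = 0.00278), with 1.88% of all genes called lower.

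Without NT 5 the log2 fold change of Ccl9 was −1.22 and the call was kept (edgeR, adjusted p = 0.0206). The call was lost without NT 3, NT 4 or any of the 4 LSD1i libraries (adjusted p from 0.0501 without NT 4 to 0.141 without LSD1i 4), and in the fit of raw counts with a batch term (−1.98 ± 0.52, edgeR, adjusted p = 0.107). In replicates 1 and 2 alone the raw log2 fold change was −1.27 ± 0.40 (adjusted p = 0.788 in edgeR), and in replicates 3 to 5 it was −2.52 ± 0.78 (adjusted p = 0.231). Under the raw table's own names the log2 fold change of Ccl9 was also below 0 (−1.25 ± 0.73, edgeR, adjusted p = 0.999). In replicates 1 and 2 those names turn Ccl9 around, to 1.56 and 1.31 raw CPM in LSD1i and 0.681 and 0.534 in NT. The negative value thus comes from replicates 3 to 5, which both tables name alike, NT 5 at 7.53 raw CPM among them.

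Of 18 myeloid markers in the table, 1 passed the filter, Cd68 (log2 fold change 0.01 ± 0.17). S100a8, S100a9 and Elane were at 0 in every library, and Lyz2 and Csf1r had at most 1 count. Others were detected at low counts, with up to 21 in a library for Ly86 and up to 10 for Itgam and for Cebpa. The whole myeloid list summed to 6.81 to 11.2 CPM in LSD1i libraries and 6.85 to 10.4 CPM in NT libraries, mostly Cd68, and its part in the Ccl9 values was not tested.

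The 250 bases before the gene start of Ccl9 and Cxcl10 are shown because Ccl9 was the called chemokine with an entry in the RefSeq promoter table (GRCm38.p6) and Cxcl10 is the textbook interferon-induced member. Entries were found for 5 of the 7 genes, and those of Ccl4 and Ccl5 were not. Capitals mark letters that match any of 5 motifs searched on both strands, namely GGG and CC with 5 bases of any kind between them (NF-kB), TGANTCA (AP-1), a pair of GAAA with 2 bases of any kind between them (interferon-stimulated response element), TCACACC (T-box) and AAATC (Gfi1 core).
Ccl9 (chr11:83578637-83578886, minus strand): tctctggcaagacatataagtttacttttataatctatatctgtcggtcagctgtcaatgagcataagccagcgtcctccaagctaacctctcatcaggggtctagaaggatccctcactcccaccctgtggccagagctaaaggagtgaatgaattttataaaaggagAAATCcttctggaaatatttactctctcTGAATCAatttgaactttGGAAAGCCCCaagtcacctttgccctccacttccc
Cxcl10 (chr5:92348890-92349139, minus strand): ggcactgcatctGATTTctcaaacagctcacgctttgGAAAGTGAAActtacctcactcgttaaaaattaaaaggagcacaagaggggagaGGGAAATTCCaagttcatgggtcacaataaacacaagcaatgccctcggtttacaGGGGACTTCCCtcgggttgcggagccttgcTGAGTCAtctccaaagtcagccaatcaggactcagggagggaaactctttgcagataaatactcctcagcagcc
In the Ccl9 stretch, an AP-1 match starts 53 bases before the gene start, an AAATC match 81 bases before it and an NF-kB match 35 bases before it. The share of all 32851 promoters with a match was 6.75% for AP-1, 32.7% for AAATC and 45.8% for NF-kB. The Cxcl10 stretch holds the response element match GAAAGTGAAA 213 bases before the start, found in 2.98% of all promoters. It also holds an AP-1 match, an AAATC match on the opposite strand, 238 bases before the start, and NF-kB matches, those at 104 and 103 bases overlapping each other. The Ccl3 stretch had 0 matches to the 5 motifs, which says only that these letters are not in that window. A match is a description of letters, and binding was not measured.

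Cxcl10, induced by interferon gamma and a ligand of CXCR3 on effector T cells, did not pass. Its levels were 4.97, 8.72, 7.67 and 4.68 CPM in LSD1i 1 to LSD1i 4, against 6.33, 10.1, 10.99, 10.1 and 4.89 CPM in NT 1 to NT 5. The groups overlapped, with LSD1i 1 and LSD1i 4 and the library NT 5 at the low end. The log2 fold change was −0.38 ± 0.27 (adjusted p = 0.614 in edgeR), and its 95% interval from −0.97 to 0.21 includes no change as well as a fall of the size seen for Ccl5.

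The CC chemokines Ccl3 and Ccl4, also called MIP-1 alpha and MIP-1 beta and released together by activated T cells, did not pass either. Ccl3 had 56.2, 81.0, 47.9 and 63.1 CPM in LSD1i 1 to LSD1i 4, against 52.4, 76.3, 79.7, 52.6 and 96.5 CPM in NT 1 to NT 5. Its log2 fold change was −0.20 ± 0.20 (edgeR, adjusted p = 0.742), with a 95% interval from −0.65 to 0.24. Ccl3 thus varied more between libraries of a group than between the groups. Ccl4 had 82.2, 99.7, 63.0 and 82.1 CPM in LSD1i 1 to LSD1i 4, against 59.9, 92.1, 103, 64.5 and 115 CPM in NT 1 to NT 5. The log2 fold change of Ccl4 was −0.09 ± 0.20 (edgeR, adjusted p = 0.912), with a 95% interval from −0.52 to 0.35, and its sign changed with the fit. In raw counts it was 0.42 ± 0.31 in replicates 1 and 2 and −0.28 ± 0.15 in replicates 3 to 5, and the difference between these (−0.72 ± 0.37) did not pass (edgeR, adjusted p = 0.764). It passed without NT 2 (−1.24 ± 0.27, edgeR, adjusted p = 0.0460), a fit in which 3.38% of all genes were called.

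Ccl3 and Ccl4 went up and down together among libraries of the same group. Their deviations from the group means, as log2(CPM + 0.5), correlated at r = 0.97 over the 9 libraries of the batch-corrected table, and at 0.89 in raw counts after taking out group and replicate set means. Xcl1 followed them less closely, at 0.56 with Ccl3 and 0.56 with Ccl4. Ccl5 did not share this pattern, with r of −0.47 against Ccl3 and −0.58 against Ccl4, and of −0.33 and −0.34 in raw counts. Ccl5 and Ccl9, the 2 that fell, ran opposite within groups (−0.59, and −0.66 in raw counts). The lowest r was that of Ccl9 with Cxcl10 (−0.75, and −0.46 in raw counts). Some pairs depended on the table, as Ccl4 with Cxcl10 had −0.07 and, in raw counts, 0.60. These correlations are descriptions over 9 libraries that share their normalization.

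Xcl1, or lymphotactin, had 90.5, 118, 113 and 101 CPM in LSD1i 1 to LSD1i 4, against 96.1, 128, 143, 81.1 and 106 CPM in NT 1 to NT 5. The LSD1i libraries lay within the range of the NT libraries. Its log2 fold change of −0.07 ± 0.15 did not pass (edgeR, adjusted p = 0.908), and the 95% interval ran from −0.41 to 0.27.

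Ccl1, a ligand of CCR8, was near the limit of detection. It had 0, 1, 0 and 0 raw reads in LSD1i 1 to LSD1i 4, against 2, 0, 1, 1 and 3 in NT 1 to NT 5. All these values are at or under the 3 reads that a count of 0 allows for counting error, so no fold is given.

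**Figure D3:**
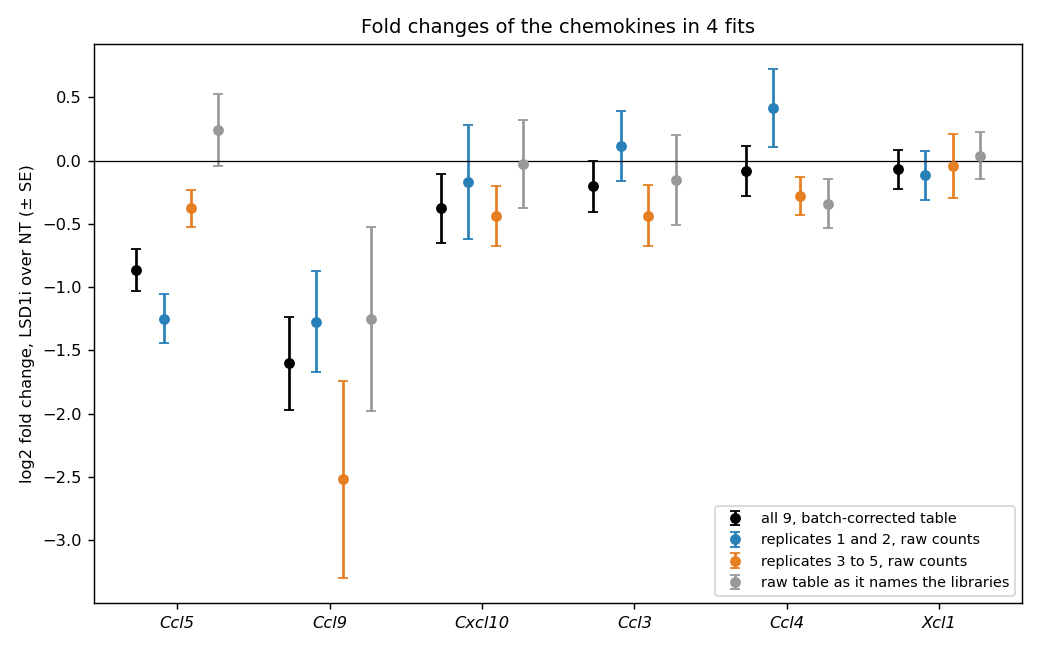
Log2 fold change of LSD1i over NT (vertical axis, bars for SE) of the 6 tested chemokines in the batch-corrected table, in raw counts of replicates 1 and 2, in raw counts of replicates 3 to 5, and in the raw table with its own names. Ccl9 is below 0 in all 4 fits, which share libraries, and replicates 3 to 5 carry the same names in both tables. Ccl5 is below 0 except under the raw table's own names (0.24), and Ccl3, Ccl4, Cxcl10 and Xcl1 stay within 0.45 of 0.

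The 7 chemokines together made up 249 to 324 CPM in LSD1i libraries and 240 to 371 CPM in NT libraries. Ccl5 contributed 5.02% to 8.81% of this sum in LSD1i libraries and 7.46% to 15.9% in NT libraries, and the groups overlapped. Ccl3, Ccl4 and Xcl1 made up 87.9% to 92.1% of it in LSD1i libraries and 80.8% to 89.8% in NT libraries.

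The authors' deposited table of fold changes lists all 7 genes with log2 fold changes below 0. The share of all its genes below 0 was not counted, and the value of Ccl1 (−1.85) rests on at most 3 raw reads in a library. The values come from the same libraries and lie close to the edgeR fit with no low-count filter (−0.192 for Ccl3 in both). They are therefore not separate support. For Ccl5 the authors' deposited table gives −0.86 with an adjusted p (FDR) of 0.00454, and marks it NS. For Ccl9 the authors' deposited table gives −1.58 with an FDR of 0.0292, and marks it DOWN. The smallest absolute log2 fold change that the authors' deposited table marks UP or DOWN is 1.20, and 0.603% of its 20052 genes have an FDR under 0.05 and a log2 fold change below 0. The other 5 chemokines have FDR values of 0.608 or more in the authors' deposited table.

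In the RefSeq gene order of GRCm38.p6, Ccl5, Ccl9, Ccl3 and Ccl4 lie in a row on chromosome 11, with 1 listed gene between Ccl5 and Ccl9, 4 between Ccl9 and Ccl3 and 0 between Ccl3 and Ccl4. The 2 members that fell thus lie next to each other among the 7, and the next 2 along did not pass. The 2 nearest tested genes on each side of the 7 chemokines comprised 16 further genes. Of these, 0 were called by edgeR or by DESeq2, and 1 had an unadjusted p under 0.05. Over all 11981 tested genes edgeR called 3.31%, so 0 of 16 is near that share and does not set the neighbours apart. The log2 fold changes of the 16 ran from −0.73 to 0.22.

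Genes whose level followed a chemokine most closely were sought among 9954 tested genes whose mean log2(CPM + 0.5) was 2 or more, by Pearson's r over the levels of all 9 libraries, so that a shared group difference counts as likeness. For Ccl5 they were Stc2, which encodes a stanniocalcin (r = 0.98), Pxn, which encodes the focal adhesion protein paxillin (0.95), and 8430419L09Rik (0.95). For Ccl9 they were 4933421O10Rik (0.96), Penk, the enkephalin precursor (0.95), and Alg6 (0.95). Cox7b, a subunit of cytochrome c oxidase, was among the closest for both Ccl3 (0.99) and Ccl4 (0.99), with Pde12 and Hspbp1 for Ccl3 and Magohb and Ndufc2 for Ccl4. Xcl1 was most like Gtpbp10 (0.94), Got2 (0.91) and Mlx (0.90), and Cxcl10 most like Rad52 (0.96), Cwc27 (0.96) and Yars (0.96). The closest of 9954 candidates over 9 libraries can reach a high r by selection alone, so these values do not show shared regulation.

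Other chemokine genes were largely silent. Of 32 further chemokine and chemokine-like genes in the table, 3 passed the filter and 0 were called by edgeR, by DESeq2 or at an unadjusted p under 0.05. They were Mif, an inflammatory mediator with chemokine-like activity, with 651 ± 30.5 CPM in LSD1i cells and 606 ± 70.1 CPM in NT cells and named after its value was seen, Ccl27a (log2 fold change 0.33 ± 0.17) and Ccl25 (−0.24 ± 0.21). The remaining 29 had at most 0.671 CPM in any library, the highest being Cxcl16, and 13 were at 0 throughout.

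Of the genes listed as receptors of these chemokines, 8 were in the table, 5 were tested and 0 were called by edgeR or DESeq2, while 1 had an unadjusted p under 0.05. Ccrl2, an atypical receptor that was put on this list, did not pass. It had 59.8 ± 10.99 CPM in LSD1i cells and 43.6 ± 13.0 CPM in NT cells (log2 fold change 0.45 ± 0.21, edgeR, adjusted p = 0.364). Xcr1, the receptor of Xcl1, had at most 3 counts in a library.

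Among 9 tested genes of chemokine storage, processing and release, 1 rose and 0 fell, with a median log2 fold change of 0.01. Sdc4, a heparan sulfate proteoglycan of the kind that binds chemokines at the cell surface, had 83.7 ± 12.5 CPM in LSD1i cells and 51.2 ± 7.14 CPM in NT cells (log2 fold change 0.71 ± 0.12, edgeR, adjusted p = 0.00938). Stx11, a syntaxin of granule release (0.27 ± 0.10), and Dpp4, a protease that trims chemokines (0.19 ± 0.11), did not pass.

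Of 27 tested transcription factors linked to chemokine genes, 3 rose and 0 fell, and their median log2 fold change was 0.04. Gfi1, a repressor that recruits LSD1, rose by 1.26 ± 0.09, the T-box factor Eomes by 0.82 ± 0.10 and the AP-1 subunit Fos by 0.66 ± 0.12 (log2 scale, SE). Under the raw table's own names 0 of the 3 were called by edgeR, as were 0 of all 11916 genes. Eomes was lower in LSD1i in that fit (−0.26). Of 17 tested interferon gamma-induced genes, which share their inducer with Cxcl10, 1 rose and 0 fell. It was Gbp2, a guanylate-binding GTPase, with 504 ± 47.5 CPM in LSD1i cells and 334 ± 35.2 CPM in NT cells (log2 fold change 0.59 ± 0.10, adjusted p = 0.00713). Gbp3 (0.21 ± 0.09) and Irgm1 (0.16 ± 0.08) did not pass, and the median of the list was 0.04.

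Cytokines that T cells release on receptor triggering moved in both directions, with 2 of 12 tested genes higher, 3 lower and a median log2 fold change of −0.44. Tnfsf11, the ligand RANKL, fell by 1.07 on the log2 scale, Csf2, or GM-CSF, by 1.06 and the death ligand Fasl by 1.05. Il3 (0.86 ± 0.17) and Tnfsf14 (0.41 ± 0.08) rose. In the fit of raw counts with a batch term, Tnfsf14 kept its call and the other 4 lost theirs. Leaving out 1 library, Tnfsf11 and Fasl were each called in 7 of 9 fits (lost without LSD1i 1 or LSD1i 4, and without LSD1i 3 or LSD1i 4), and Il3 in 8 (lost without LSD1i 1). Tnfsf14 was called in 4 of 9 (lost without any LSD1i library or NT 3), and Csf2 in 3 of 9 (lost without any LSD1i library, NT 2 or NT 4), with adjusted p-values up to 0.104 in edgeR. Under the raw table's own names 0 of these 5 were called by edgeR, as were 0 of all 11916 genes. Il3 was lower in LSD1i in that fit (−0.23).

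**Figure D4:**
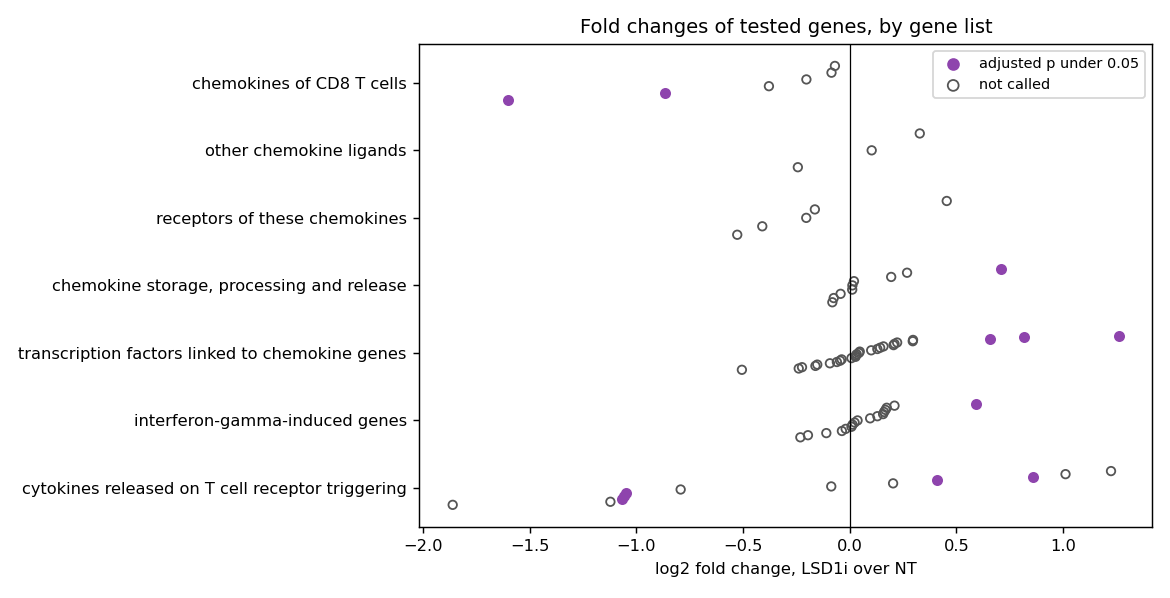
Log2 fold change of LSD1i over NT (horizontal axis) of each tested gene in the chemokine set and 6 related gene lists, with filled points at an adjusted p under 0.05 in the batch-corrected table. The chemokine points all lie at or below −0.07, with 2 filled and a median of −0.29. The cytokine list has a lower median (−0.44), and the receptor list lies at −0.20. The transcription factor and interferon gamma lists centre near 0 (medians 0.04 and 0.04).

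Markers of other cell types moved with the groups in part. The NK and innate-like list summed to 12.7 to 25.98 CPM in LSD1i libraries and 8.51 to 12.4 CPM in NT libraries. Of its 5 tested genes 2 rose, Cd7 (6.74 CPM in LSD1i against 1.94 in NT) and Klri2 (6.32 against 1.36). Klra7 (−0.39), Klre1 (−0.06) and Zbtb16 (−0.60) were not called and had log2 fold changes below 0. The median of the list was −0.06, and Ncr1, Klra8 and Klra4 were at 0. The B cell list summed to 169 to 239 CPM in LSD1i libraries and 102 to 133 CPM in NT libraries, mostly Cd74 and H2-Ab1, 1 of its 4 tested genes rose (Cd74) and 1 fell (Cd79b), and Pax5 had at most 1 count. The CD4 and regulatory T cell list summed to 50.9 to 57.0 CPM in LSD1i libraries and 48.9 to 59.8 CPM in NT libraries, with 1 of 4 called (Cd40lg, higher). The mast cell and basophil list summed to 19.2 to 78.7 CPM in LSD1i libraries and 10.9 to 37.6 CPM in NT libraries, mostly Kit. Of its 2 tested genes 0 were called by edgeR or DESeq2 and 2 had an unadjusted p under 0.05. Their log2 fold changes had opposite signs, at 1.10 ± 0.46 for Kit and −0.78 ± 0.20 for Hdc. Mcpt4 and Mcpt8 were at 0, and Cpa3, Fcer1a and Gata2 had at most 1 count. The part of these markers in the chemokine values was not tested.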

How the data were processed

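Per the labels' protocols, total RNA went into a SMARTer mRNA kit. Tools in the submitters' processing notes are featureCounts, STAR and edgeR, with build mm9, and the sources used here give no versions, annotation or strand setting. The authors deposited raw read counts, batch-corrected estimated counts (whole numbers, correction method not given) and a table of log2 fold changes, F scores and p-values of their own comparison. Raw libraries were matched to batch-corrected ones by their zero genes. Counts were fitted with edgeR 4.0.16 (R 4.3.3, quasi-likelihood test, TMM, minimum count 10, minimum total 15, Benjamini-Hochberg adjustment at 0.05), by group only in the batch-corrected table, which charges no degrees of freedom for the correction. The fit was tested on simulated data, and DESeq2 1.42.0 was an alternative. The SE of a fold change is the size of its unshrunk coefficient divided by root F. The design, taken from the titles, has 4 LSD1i and 5 NT libraries. The gene set and lists were chosen with earlier results of these data known. All 7 chemokines were named. From each further list the text names genes that passed, at most 6, and the 2 with the smallest p that did not where fewer than 2 passed, with exceptions stated. Some items are not reported here.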

Additional observations from a re-analysis of the deposited data

Results flagged for a closer look

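Of 12 combinations of chemokine and group, 1 had a library that stood apart from the rest of its group by its gap relative to the group's range. This was Ccl9 in NT 5, at 4.49 CPM in the batch-corrected table, where the other NT libraries had 1.64 to 2.21 CPM. Chance alone marks about 1 in 20 groups.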

How the results depend on the processing

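The number of genes called (397) became 0 in the raw table as named, 220 with raw counts, the corrected names and the batch term, 117 in the 5 libraries named alike, 8 in the other 4, and 656 with DESeq2. The 2 chemokines called became 0 in each of those 4 raw fits (edgeR, where 0, 2, 2 and 2 of 6 had an unadjusted p under 0.05) and stayed 2 in DESeq2, with RLE size factors (391 genes) and with no low-count filter (398 genes). Leaving out 1 library gave 219 to 432 genes and 1 to 2 chemokines, and for the difference between replicate sets 0 to 1 chemokines. The cause was not tested. Depth limits Ccl1 (at most 3 raw reads in a library) and Ccl9 (11 to 13 raw reads in LSD1i libraries). Signs turned for Ccl3 (0.12 in the other 4 libraries), Ccl4 (0.057 with the replicate block, 0.040 with the batch term, 0.14 with raw counts and the block, 0.42 in the other 4 libraries, 0.041 without NT 5, 0.03 without LSD1i 3, leaving out 1 library −0.19 to 0.041), Xcl1 (0.038 as the raw table names, 0.038 without NT 3, leaving out 1 library −0.16 to 0.038) and, as the raw table names, Ccl5 (0.24), Ccl27a (−0.095), Eomes (−0.26) and Il3 (−0.23).

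Equal replicate numbers gave no clear sign of pairing in the batch-corrected table. Deviations of same-numbered libraries correlated at −0.32 to 0.32, and 0 of 4 LSD1i libraries correlated best with the NT library of the same number. With so few libraries, and counts already batch corrected, this cannot exclude pairing. With the replicate block, 326 genes and the 2 chemokines were called (352 and 2 in raw counts). In the batch-corrected table the SE with the block was 0.24 for Ccl9, against 0.37 without it, and 0.17 for Ccl5, against 0.16. Fasl lost its call with the block (edgeR, adjusted p = 0.0522, and 0.102 in raw counts).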
